A study of Homo sapiens with 2 samples.

Results

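The genes described here are the amino acid transporters of 7 solute carrier families, taken as every gene whose name begins with SLC1A, SLC3A, SLC6A, SLC7A, SLC36A, SLC38A or SLC43A followed by a number. This name rule found 59 genes among the 24991 gene names present in both libraries. The rule itself uses no measured value, but it was set with earlier results of these data known. The families also hold carriers of other substrates, since several SLC6A members move neurotransmitters, taurine or creatine. Each group is 1 library of PLC cells, a line grown from a human liver cancer. One group carried the empty pCDH vector (EV, genotype WT in the labels) and the other carried the same vector with the human PRSS35 coding sequence (PRSS35 over-expression). PRSS35 encodes a secreted serine protease. Both groups were lentivirally infected and selected with puromycin, neither received a further treatment, and the medium of PLC cells held 25 mM glucose, 4 mM L-glutamine, 1 mM pyruvate and 10% FBS. Values are FPKM, that is fragments scaled to transcript length and to the mapped fragments of the library. Cufflinks puts a lower and an upper bound around each. These bounds cover error within a library only. With 1 library per group there is no test, and a difference between EV and PRSS35 cannot be told apart from one between culture dishes.

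Amino acids cross membranes through carriers with overlapping substrates, and a cell usually combines several of them. Exchangers such as SLC7A5 import large neutral and branched-chain amino acids while exporting another amino acid, and SLC1A5 and the sodium-coupled SLC38 carriers bring in glutamine and other small neutral amino acids. The SLC7A light chains reach the plasma membrane only as partners of a heavy chain, SLC3A2 or SLC3A1. Several SLC36 and SLC38 members work in the lysosomal membrane, where amino acid levels are relayed to mTORC1, the kinase complex that promotes growth. Liver cancer cells are known for high SLC7A5, SLC3A2 and SLC1A5, whereas normal hepatocytes use SLC38A3, SLC38A4 and SLC7A2.

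The overexpressed gene matched the labels, as PRSS35 had an FPKM of 0.643 (bounds 0.445 to 0.841) in EV cells and 1836 (bounds 1759 to 1912) in PRSS35 cells. The FPKM that corresponds to 1 fragment had a median ratio of 0.999 between PRSS35 and EV over 621 loci, so the libraries were about equally deep. Of 8 hepatocyte and liver cancer markers, all 8 had a mean of at least 1 FPKM. Their summed level was 3382 FPKM in EV and 5139 in PRSS35, and the bounds were apart upward for 4 of them and downward for 1. Among all 10133 genes with a mean of at least 1 FPKM, the bounds were apart upward for 24.7% and downward for 14.3%. SERPINA1, which encodes alpha-1 antitrypsin, had 2528 and 4239 FPKM and made up most of the marker sum. The apolipoprotein gene APOA1 was lower in PRSS35 (576 and 494 FPKM, bounds apart), TF, the transferrin gene, had 224 and 348 FPKM, and APOB had 18.0 and 20.7 FPKM. ALB, the albumin gene, was low at 4.05 and 5.21 FPKM. The 9 markers of leukocytes, endothelial cells and fibroblasts summed to 1.78 and 2.30 FPKM. PDGFRB had 1.02 and 1.27 FPKM, COL1A1 had 0.699 and 0.754 FPKM, CD14 and VWF did not exceed 0.234 FPKM, and PTPRC and CD3E were listed at 0 in both libraries.

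Of the 59 transporter genes, 21 had a mean of at least 1 FPKM over both libraries and are called expressed below. The levels were steep. SLC3A2, SLC1A5 and SLC7A5 together made up 69.9% of the summed FPKM of all 59 genes in EV and 66.7% in PRSS35. After them came SLC38A10, then SLC43A1, SLC6A8 and SLC38A2. By their mean, 4 genes were at 50 FPKM or more, 11 lay between 5 and 50 FPKM and 6 between 1 and 5 FPKM. The order was nearly shared, with 16 of the 21 genes at the same rank in both libraries. Neighbours in that order were often not separable. Of 20 neighbouring pairs, the bounds overlapped in 9 in EV and in 10 in PRSS35. In EV, SLC38A3, SLC1A4, SLC7A1 and SLC38A1 formed such a run between 9.01 and 9.47 FPKM.

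**Figure D1:**
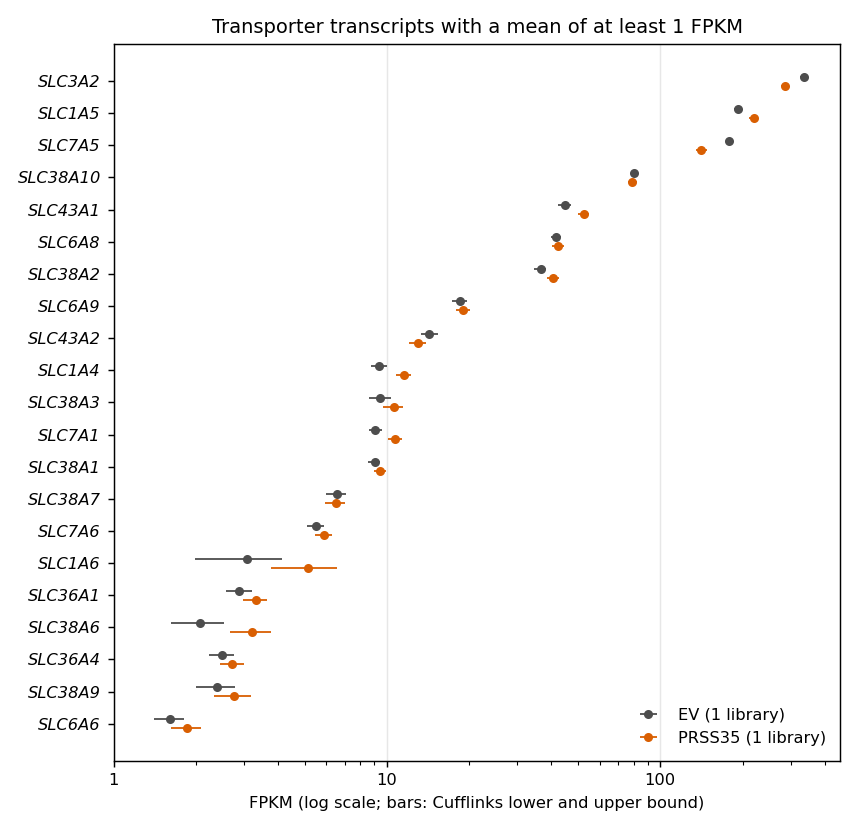
FPKM (log axis) of the 21 expressed transporter genes in the EV and the PRSS35 library, with 1 point per library and bars from the Cufflinks lower to upper bound. SLC3A2, SLC1A5 and SLC7A5 are the 3 highest in both libraries, and the points of most genes lie close together.

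The groups of carriers were unequally represented. Both neutral exchangers of the SLC1 family were expressed, as were the amino acid carriers SLC43A1 and SLC43A2, and 7 of the 11 SLC38A genes. In contrast, 3 of 19 SLC6A genes and 3 of 13 SLC7A genes reached a mean of 1 FPKM. Of the SLC1A family, 3 of 7 genes did. Over all 24991 gene names, 10133 did, beside 21 of the 59 transporters. The counts per family are small, and a difference between families was not tested.

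**Figure D2:**
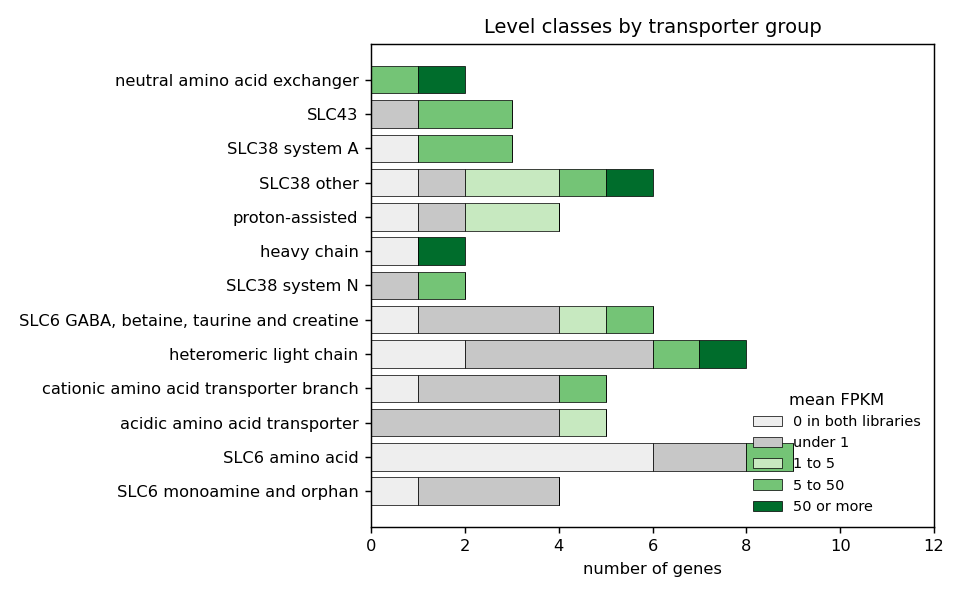
Number of transporter genes (horizontal axis) in each group of carriers, coloured by their mean FPKM over both libraries. The SLC6 groups hold most of the genes listed at 0 in both libraries, and the 4 genes at 50 FPKM or more fall in 4 different groups.

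The heavy chain SLC3A2, also called 4F2hc or CD98, was the highest transporter transcript in both libraries. Its FPKM was 335 (bounds 323 to 346) in EV and 287 (bounds 277 to 297) in PRSS35. The level in PRSS35 was 0.856 times that in EV (interval 0.815 to 0.900), and the bounds did not overlap. On the log2(FPKM + 1) scale, used for every log2 change here, the change was -0.22. It was -0.29 when centred on the median of all genes and -0.30 with upper quartile scaling. The direction turned when FPKM was scaled to the total of all loci, as given with the family sums. SLC3A1, the heavy chain of kidney and gut, was listed at 0 in both libraries. In the files, SLC3A2 lies on chromosome 11 of hg19 from 62623484 to 62656355. GENCODE annotates it there as a protein-coding gene on the plus strand.

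SLC7A5, or LAT1, is the light chain that imports leucine and other large neutral amino acids. It had an FPKM of 179 (bounds 176 to 181) in EV and 142 (bounds 135 to 148) in PRSS35. Its level was 0.792 times that in EV (interval 0.756 to 0.829), with a log2 change of -0.34, the lowest of the 21 expressed members. The EV and PRSS35 bounds did not overlap, and SLC7A5 was thus lower in PRSS35, as was its heavy chain, with the same dependence on scaling. The SLC7A5 change was -0.40 when centred on the median of all genes and -0.41 with upper quartile scaling. The locus kept its annotated structure in EV and was assembled from the reads in PRSS35, and each bound lay 1.30% from the value in EV and 4.38% in PRSS35. With the wider relative bound applied to both libraries, an alternative added after seeing the data, the SLC7A5 bounds were still apart. SLC7A5 was the 1 expressed member assembled in PRSS35 only. Of the 1096 genes of that kind, the bounds were apart with a higher value in PRSS35 for 36.7% and with a lower value for 5.93%. The part of assembly in the SLC7A5 difference was not tested. The gene lies on chromosome 16 from 87863629 to 87903100, on the minus strand in GENCODE.

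The stretches before the outermost RefSeq start sites of this heavy and light chain are shown because their transcripts were both lower in PRSS35. They were read from the RefSeq promoters (250 bases before to 50 after each start, build GRCh38.p14) and placed on GRCh37, the assembly of hg19, by an exact match. The SLC3A2 stretch is chr11:62623331-62623475 on the plus strand and stops at the base before the first GENCODE exon, and the SLC7A5 stretch is chr16:87903114-87903363 on the minus strand. Neither holds the C/EBP-ATF element described further on, so no letter is in capitals. G and C make up 60% of the SLC3A2 stretch and 79.6% of the SLC7A5 stretch.
SLC3A2: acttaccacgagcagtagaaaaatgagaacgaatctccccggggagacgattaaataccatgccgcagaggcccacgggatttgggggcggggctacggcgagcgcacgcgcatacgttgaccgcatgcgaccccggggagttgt
SLC7A5: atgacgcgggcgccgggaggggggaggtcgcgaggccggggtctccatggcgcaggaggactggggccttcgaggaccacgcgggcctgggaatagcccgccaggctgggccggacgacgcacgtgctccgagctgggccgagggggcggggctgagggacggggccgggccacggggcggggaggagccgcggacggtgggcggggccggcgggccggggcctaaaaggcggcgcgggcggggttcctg

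Among the 6 light chains that pair with SLC3A2, SLC7A5 made up 96.6% of the summed FPKM in EV and 95.5% in PRSS35. SLC7A6, or y+LAT2, which exchanges cationic for neutral amino acids, had 5.49 FPKM (bounds 5.12 to 5.87) in EV and 5.88 (bounds 5.47 to 6.29) in PRSS35, with overlapping bounds. Its locus overlaps that of SLC7A6OS, and the use of strand in counting is not stated. The light chain sum was 185 FPKM in EV and 148 in PRSS35. The ratio of SLC3A2 to this sum was 1.81 (interval 1.74 to 1.88) in EV and 1.94 (interval 1.83 to 2.04) in PRSS35. These intervals overlapped, and a shift between heavy and light chains was not tested. SLC7A11, or xCT, the cystine importer that supplies glutathione synthesis, was low at 0.461 FPKM (bounds 0.379 to 0.544) in EV and 0.602 (bounds 0.508 to 0.697) in PRSS35. Its level in PRSS35 was 1.31 times that in EV (interval 1.03 to 1.66), and its bounds overlapped between the libraries. The other partners SLC7A7, SLC7A8 and SLC7A10 did not exceed 0.185 FPKM in either library. SLC7A9 and SLC7A13, which pair with SLC3A1, did not exceed 0.318 FPKM.

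**Figure D3:**
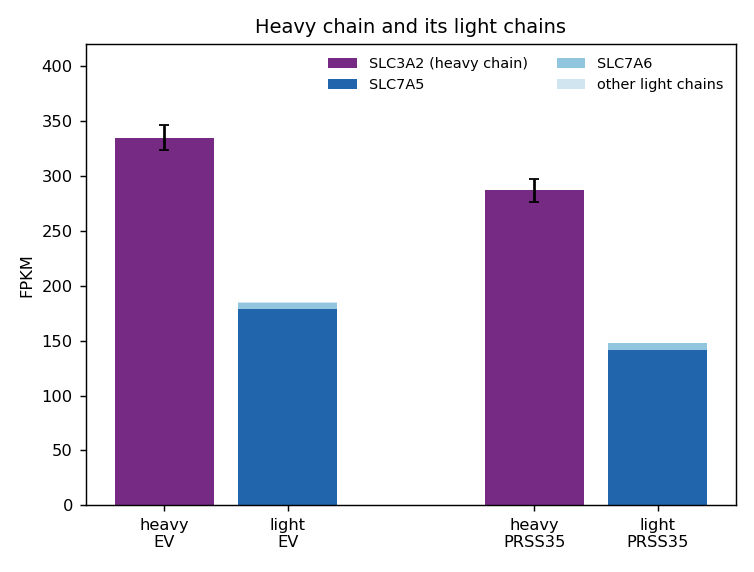
FPKM of the heavy chain SLC3A2 and stacked FPKM of the 6 light chains that pair with it, in the EV and the PRSS35 library. Error bars on SLC3A2 reach to the Cufflinks bounds. SLC7A5 fills nearly the whole light chain bar, and the heavy and the light chain bar are both lower in PRSS35 in FPKM as deposited. SLC3A2 and SLC7A5 were also lower with centring on the median of all genes and with upper quartile scaling. Both were higher with FPKM scaled to the total of all loci.

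SLC1A5, or ASCT2, a sodium-dependent exchanger that carries glutamine, was the second highest transporter transcript. It had an FPKM of 193 (bounds 186 to 200) in EV and 220 (bounds 212 to 228) in PRSS35. Its level was 1.14 times that in EV (interval 1.08 to 1.201), with a log2 change of 0.19, and the bounds did not overlap. SLC1A5 thus stood opposite to SLC7A5, and the ratio of SLC1A5 to SLC7A5 was 1.08 in EV and 1.55 in PRSS35. The SLC7A5 locus was annotated in EV and assembled in PRSS35, and that of SLC1A5 was assembled in both. The part of assembly in this ratio was not tested. SLC1A4, or ASCT1, which exchanges serine, alanine and cysteine, had 9.38 FPKM (bounds 8.73 to 10.04) in EV and 11.5 (bounds 10.8 to 12.3) in PRSS35. Its bounds did not overlap either, and its log2 change was 0.27. SLC1A4 was assembled in EV only. Of the 1025 genes of that kind, the bounds were apart with a higher value in PRSS35 for 17.5% and with a lower value for 18.8%. In the files, SLC1A5 spans 47278140 to 47292157 of chromosome 19 in EV and ends at 47291842 in PRSS35, and GENCODE has it on the minus strand.

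The stretch before the outermost RefSeq start of SLC1A5, chr19:47291852-47292101 of GRCh37 on the minus strand, is shown for comparison with the pair that was lower. It lies outside the GENCODE exons of the gene and holds no C/EBP-ATF element, and 66.8% of its bases are G or C.
SLC1A5: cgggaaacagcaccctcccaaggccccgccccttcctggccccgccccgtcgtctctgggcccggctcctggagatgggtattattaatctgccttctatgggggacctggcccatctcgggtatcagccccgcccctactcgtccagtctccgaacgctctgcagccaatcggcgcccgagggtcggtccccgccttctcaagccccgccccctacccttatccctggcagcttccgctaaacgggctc

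The acidic carriers of the SLC1 family take up glutamate and aspartate. SLC1A6, or EAAT4, a carrier best known from cerebellar neurons, was the 1 acidic carrier expressed, with 3.07 FPKM (bounds 1.99 to 4.14) in EV and 5.16 (bounds 3.77 to 6.55) in PRSS35. Its log2 change of 0.60 was the highest of the 21 genes, and its level was 1.68 times that in EV (interval 1.08 to 2.62). The bounds overlapped and were wide, since each lay 35.0% from the value in EV and 26.9% in PRSS35. The other 4 acidic carriers did not exceed 0.101 FPKM in either library. SLC1A2, the main glutamate carrier of brain that is also found in liver, had 0.00279 FPKM in both.

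Among the cationic carriers, which import arginine and lysine, SLC7A1 (CAT1) was expressed. It had 9.08 FPKM (bounds 8.59 to 9.58) in EV and 10.7 (bounds 10.1 to 11.4) in PRSS35, a log2 change of 0.22, and the bounds did not overlap. SLC7A2, the cationic carrier of hepatocytes, had 0.610 FPKM (bounds 0.504 to 0.717) in EV and 0.513 (bounds 0.415 to 0.611) in PRSS35. SLC7A1 was thus far above SLC7A2 in both libraries. SLC7A3, SLC7A4 and SLC7A14 were at or below 0.129 FPKM.

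System A carriers of the SLC38 family bring in small neutral amino acids together with sodium. SLC38A2 (SNAT2) had 36.5 FPKM (bounds 34.7 to 38.3) in EV and 40.7 (bounds 38.7 to 42.6) in PRSS35, and the bounds did not overlap. Its locus was annotated in both libraries, and its log2 change was 0.15. SLC38A1 (SNAT1) had 9.01 FPKM (bounds 8.56 to 9.46) in EV and 9.43 (bounds 8.98 to 9.89) in PRSS35, with overlapping bounds. SLC38A4, the system A carrier of the liver, was listed at 0 in both libraries. SLC38A3 (SNAT3), the system N glutamine carrier of hepatocytes, had 9.47 FPKM (bounds 8.62 to 10.3) in EV and 10.6 (bounds 9.67 to 11.5) in PRSS35, and these bounds overlapped. SLC38A5, also of system N, had 0.296 and 0.351 FPKM.

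Of the remaining SLC38A genes, SLC38A10 was the most abundant, with 80.3 FPKM (bounds 77.9 to 82.8) in EV and 79.0 (bounds 76.1 to 81.9) in PRSS35. The level was 0.983 times that in EV (interval 0.937 to 1.03), and the bounds overlapped. SLC38A7, a lysosomal exporter of glutamine and asparagine, had 6.55 FPKM (bounds 6.01 to 7.10) and 6.49 (bounds 5.95 to 7.03). SLC38A9, the lysosomal arginine sensor that binds the Rag GTPases, had 2.39 FPKM (upper bound 2.78) and 2.75 (lower bound 2.33). Both had overlapping bounds. SLC38A6 had 2.08 FPKM (bounds 1.63 to 2.53) in EV and 3.21 (bounds 2.66 to 3.76) in PRSS35, a log2 change of 0.45. Its bounds were apart as deposited and overlapped with the wider relative bound applied to both libraries.

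SLC43A1 (LAT3) and SLC43A2 (LAT4) let large neutral amino acids pass without sodium or exchange. SLC43A1 had 44.8 FPKM (bounds 42.3 to 47.3) in EV and 52.5 (bounds 50.1 to 55.0) in PRSS35, a log2 change of 0.23, with bounds apart. SLC43A2 had 14.3 FPKM (bounds 13.3 to 15.3) and 13.0 (bounds 12.05 to 13.9), with overlapping bounds and a log2 change of -0.13. The values of SLC43A1 and SLC43A2 thus lay on opposite sides of 0. SLC43A3, which carries nucleobases, did not exceed 0.0538 FPKM. The proton-coupled carriers SLC36A1 and SLC36A4 had 2.89 and 2.49 FPKM in EV and 3.31 and 2.72 FPKM in PRSS35, each with overlapping bounds.

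In the SLC6A family, 3 genes were expressed and none had its bounds apart. SLC6A8, the creatine transporter, had 41.6 FPKM (bounds 39.8 to 43.5) in EV and 42.4 (bounds 40.2 to 44.5) in PRSS35. SLC6A9 (GlyT1), which takes up glycine, had 18.5 FPKM (bounds 17.3 to 19.6) and 19.0 (bounds 17.9 to 20.1). Its locus overlaps that of CCDC24, which had 17.4 and 12.1 FPKM. SLC6A6, the taurine transporter, had 1.61 FPKM (bounds 1.41 to 1.81) and 1.85 (bounds 1.62 to 2.09). The neutral amino acid carrier of gut and kidney, SLC6A19, did not exceed 0.195 FPKM, and the betaine carrier SLC6A12 did not exceed 0.394 FPKM. The monoamine carriers SLC6A2, SLC6A3 and SLC6A4 did not exceed 0.0246 FPKM.

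The other 38 of the 59 genes had a mean below 1 FPKM, at most 0.699 (SLC6A11). Of these, 19 were above 0 in both libraries. Another 15 were listed at 0 in both: SLC3A1, SLC36A3, SLC38A4, SLC38A8, SLC6A4, SLC6A5, SLC6A7, SLC6A13, SLC6A14, SLC6A15, SLC6A18, SLC6A20, SLC7A4, SLC7A10 and SLC7A13. In PRSS35 alone a value above 0 was listed for SLC1A7 (0.0856 FPKM), SLC36A2 (0.0202 FPKM) and SLC6A2 (0.0246 FPKM). In EV alone this held for SLC7A14 (0.00323 FPKM). None of the 38 genes had its bounds apart. A listed 0 can also be a failed estimate in these files, and SLC7A10 lies at a locus that overlaps the abundant LRP3.

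None of the 21 expressed genes passed 2-fold in either direction. Among all 10133 genes with a mean of at least 1 FPKM, 1.89% passed it upward and 1.84% downward. The log2 changes of the transporters spanned -0.34 to 0.60 around a median of 0.13, and the median of all these genes was 0.06. The value was higher in PRSS35 for 16 genes and lower for 5, and 60.7% of all genes were higher. With log2 changes centred on the median of all genes, 13 of the 21 were higher. The bounds were apart for 6 genes with a higher value (SLC1A5, SLC1A4, SLC7A1, SLC38A2, SLC38A6 and SLC43A1) and for 2 with a lower value (SLC3A2 and SLC7A5). Over all 10133 genes the bounds were apart for 24.7% with a higher and 14.3% with a lower value. In the 18 transporters and 8012 genes in the same assembly state in both libraries, the bounds were apart upward for 5 transporters (24% of the genes) and downward for 1 (14.9% of the genes). The counts of the transporters are near these shares, and no shift of the transporters as a group can be read from them. Of the 1231 genes with a mean of at least 100 FPKM, the level class of SLC3A2, SLC7A5 and SLC1A5, the bounds were apart with a higher value for 24.7% and with a lower value for 34%.

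**Figure D4:**
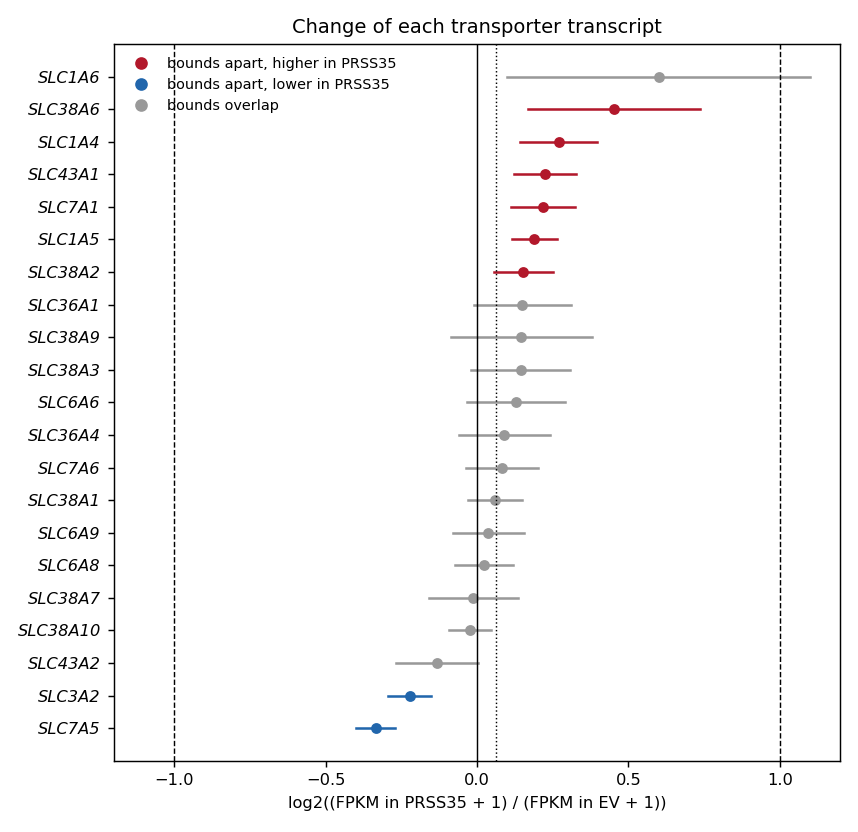
Log2 change of each expressed transporter gene, PRSS35 over EV, with lines for the interval that the Cufflinks bounds of both libraries give. The dotted line is the median of all genes (0.06) and the dashed lines mark 2-fold. All 21 points lie inside the dashed lines, with SLC7A5 and SLC3A2 lowest.

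**Figure D5:**
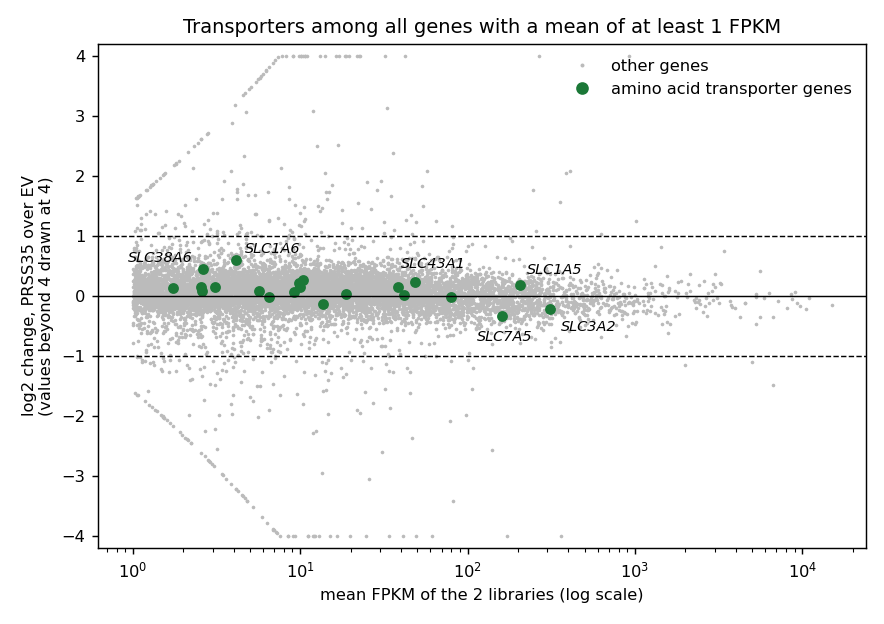
Log2 change against mean FPKM (log axis) for all 10133 genes with a mean of at least 1 FPKM, with the 21 transporter genes as large points. The transporters lie within the cloud of other genes, and none passes the dashed 2-fold lines.

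The summed FPKM of each family was compared between the libraries. The sum in PRSS35 relative to EV was 1.15 for SLC1A, 1.13 for SLC36A, 1.11 for SLC43A, 1.04 for SLC38A, 1.02 for SLC6A, 0.856 for SLC3A and 0.818 for SLC7A. The SLC1A, SLC3A and SLC7A ratios were set by SLC1A5, SLC3A2 and SLC7A5. The sum over all 59 genes was 1010 FPKM in EV and 972 FPKM in PRSS35. When FPKM was scaled to the total of all loci, every expressed transporter was higher in PRSS35, SLC3A2 with a log2 change of 0.49 and SLC7A5 with 0.37. The median of all genes was then 0.68, so that both stayed below it, while SLC1A5, at 0.90, stayed above.

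Other genes of amino acid transport and sensing were read from lists of their own. Of 21 carriers outside the 7 families, mostly mitochondrial and lysosomal, 19 were found under their own name and 11 were expressed, and SLC25A15 and SLC25A44 share a locus with other genes in the files and were not analysed here. The bounds were apart for 4 of the 11 with a higher and 1 with a lower value, where all genes gave 24.7% and 14.3%, and the median log2 change was 0.16 beside 0.06 for all genes. The lysosomal carriers PQLC2, which exports cationic amino acids, and MFSD12, linked to cysteine import, had 81.1 and 72.9 FPKM in EV and 78.4 and 70.3 FPKM in PRSS35. CTNS, the cystine exporter of lysosomes, had 37.8 FPKM (bounds 35.9 to 39.8) in EV and 31.0 (bounds 29.4 to 32.6) in PRSS35, with bounds apart. SLC25A13, the aspartate-glutamate carrier citrin, had 25.9 FPKM (bounds 24.4 to 27.5) and 31.2 (bounds 29.4 to 32.9), also apart. SLC25A22, a mitochondrial glutamate carrier, is listed at 0 in EV. In PRSS35, where its locus was assembled, it had 21.2 FPKM and was the 1 expressed gene of this list past 2-fold on the log2(FPKM + 1) scale. Of all genes with a mean of at least 1 FPKM, 1.89% passed 2-fold upward. The 0 in EV can also be a failed estimate, and SLC25A22 is among the 4 genes with bounds apart and a higher value.

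Of 22 genes of amino acid sensing, 21 were found under their own name in both libraries and 18 were expressed, with a median log2 change of 0.06. The bounds were apart for 5 of the 18 with a higher and 5 with a lower value, where all genes gave 24.7% and 14.3%. ATF4, the transcription factor of the amino acid response, had 383 FPKM (bounds 366 to 400) in EV and 441 (bounds 422 to 461) in PRSS35. LAMTOR1, the membrane anchor of the Ragulator complex, had 354 FPKM (bounds 337 to 370) and 320 (bounds 305 to 335), and MLST8, a subunit of mTORC1, had 252 (bounds 240 to 263) and 221 (bounds 211 to 231). LAMTOR5, also in Ragulator, had 163 FPKM (bounds 154 to 172) and 141 (bounds 133 to 149). All 4 had bounds apart, ATF4 upward and the other 3 downward. RRAGD, a Rag GTPase, was the 1 sensing gene past 2-fold, with 2.95 FPKM (bounds 2.67 to 3.24) in EV and 7.25 (bounds 6.43 to 8.07) in PRSS35. Its locus was assembled in PRSS35 only. Of the 1096 genes of that kind, 4.56% passed 2-fold upward and 0.547% downward, beside 1.89% and 1.84% of all genes.

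ATF4 acts with C/EBP proteins on the element TGATGNAA, which is known from genes of the amino acid response, and the RefSeq promoters were searched for it on both strands (TTNCATCA on the other). Of the 21 expressed transporters, 19 have an entry, and SLC38A3 and SLC6A6 do not. A match was present for 5 of the 19 genes (26.3%), for 4.46% of the 27305 genes in the table and for 3.60% of its 15843 protein-coding genes. Of all 45 transporters with an entry, 6 had one (13.3%), the sixth being SLC1A3, a glutamate carrier at 0.0338 FPKM in both libraries. By promoter, since many genes have several start sites, the counts were 5 of 34 (14.7%) and 1270 of 35116 (3.62%). No filter on FPKM was applied to the other genes of the table. The transporters on that basis are all 45, with a match in 6 of 67 promoters (8.96%). The matched sites are shown with the 8 matched bases in capitals and 11 bases on each side where the promoter extends so far. The first matched base lies 97 bases before a start of SLC1A5, 7 bases before that of SLC1A4 and 4 bases before that of SLC38A1, and, counting the first transcribed base as 1, at base 8 of SLC7A1 and base 38 of SLC3A2.
SLC1A5: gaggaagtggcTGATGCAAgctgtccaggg
SLC1A4: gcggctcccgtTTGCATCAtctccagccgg
SLC38A1: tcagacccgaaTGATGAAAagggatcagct
SLC7A1: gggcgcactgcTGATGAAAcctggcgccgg
SLC3A2: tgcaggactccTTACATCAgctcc

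In GRCh37 these sites are at chr19:47288150-47288179 for SLC1A5, chr2:65216515-65216544 for SLC1A4, chr12:46660285-46660314 for SLC38A1, chr13:30169800-30169829 for SLC7A1 and chr11:62649197-62649220 for SLC3A2. The sites of SLC1A5, SLC1A4, SLC38A1 and SLC3A2 belong to start sites inside the GENCODE span of the gene, and that of SLC7A1 lies at its 5' end. Of these 5 genes, SLC1A5, SLC1A4 and SLC7A1 had bounds apart with a higher value in PRSS35, SLC3A2 with a lower value, and those of SLC38A1 overlapped. Over all 10133 genes with a mean of at least 1 FPKM, the bounds were apart upward for 24.7% and downward for 14.3%. SLC1A4 and SLC38A1 were assembled in EV only. With 5 genes, a link between a match and a change cannot be read, and it was not tested. SLC7A5 has no match in its promoter window. A match is a description of letters, and the binding of a factor was not measured.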

How the data were processed

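RNA of PLC cells was sequenced as 1 library per group (EV and PRSS35). The authors aligned reads to hg19 with TopHat2 2.1.0 and estimated transcripts with Cufflinks 2.2.1, per library, and deposited FPKM with a lower and an upper bound. The submitters' notes name Cuffdiff 2.2.1. Annotation release and options are not given in the sources used here. No counts were used.

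Rows were matched by gene name, rows sharing a name were summed, and alternate haplotypes were left out. No transporter was in a joined row or had more than 1 row. The log2 change was computed after adding 1 FPKM, for genes with a mean of at least 1 FPKM, called at 2-fold. Intervals of ratios combine the relative bounds of both libraries in quadrature. Transporters with a mean of at least 1 FPKM are named, with any at 0 in 1 library, and of other lists the 4 most abundant and any past 2-fold. ALB, PTPRC, CD3E and the transporters with a lower mean that the text names were picked once their values had been seen. Members and lists were chosen with earlier results of these data known. Promoters are from RefSeq (GRCh38.p14), annotation from GENCODE v44lift37. List genes that share a locus with other genes were left out. Depth was compared only between the libraries, at loci annotated in both. The fragments at such a locus were estimated by dividing 2 times the FPKM by its distance from the upper bound and squaring the result. Python 3.11.15, numpy 2.4.6, pandas 2.3.3 and matplotlib 3.10.9 were used.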

Additional observations from a re-analysis of the deposited data

How the results depend on the processing

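No paired analysis was possible because each group has 1 library. Scaling FPKM to the total of all loci moved most values, since the summed FPKM differed by 0.71 on the log2 scale over all loci and by 0.05 over matched gene names. The median log2 change was then 0.70 for the transporters and 0.68 for all genes, and 1 transporter was 2-fold higher. The bounds were apart upward for 21 transporters and downward for 0, beside 87.8% and 1.81% of all genes. SLC3A2 was at 0.49, SLC7A5 at 0.37 and PRSS35 at 10.64. The ratios of summed FPKM were 1.89 for SLC1A, 1.402 for SLC3A, 1.67 for SLC6A, 1.34 for SLC7A, 1.84 for SLC36A, 1.70 for SLC38A and 1.82 for SLC43A. At a 1.5-fold threshold 1 transporter was higher. The shares of all genes past 2-fold under that scaling, or past 1.5-fold, were not computed. With no filter on FPKM the median of all 59 genes was 0. A restriction to genes with the same assembly state in both libraries, added after seeing the data, leaves out SLC7A5. The bounds were then apart downward for 1 transporter and for 14.9% of the genes. PRSS35 was at 11.27 with a pseudocount of 0.1 FPKM and at 8.35 with 5 FPKM. Of 126 values of single transporters under 6 alternatives, 102 moved by less than their own interval. The alternative that took the highest row per name could not move any value, since no transporter had more than 1 row. Its values are thus among the 102 by construction. The sign of 3 transporters near 0 changed with centring and of 3 with upper quartile scaling. With 1 library per group, differences of this size cannot be told apart from differences between culture dishes, and genes near 1 FPKM have wide bounds.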

Other observations

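Partners of the transporters were read out beside them. BSG, or basigin, a chaperone of other carriers at the plasma membrane, had 884 FPKM (bounds 846 to 921) in EV and 832 (bounds 796 to 867) in PRSS35, with overlapping bounds. LAPTM4B, which brings the SLC3A2 and SLC7A5 pair to lysosomes, had 47.6 FPKM (bounds 45.8 to 49.3) in EV and 58.3 (bounds 56.3 to 60.2) in PRSS35, with bounds apart and an annotated locus in both libraries. NEDD4L, a ubiquitin ligase, had 46.1 FPKM in both. TMEM27, a partner of SLC6A19, had 0.293 FPKM in EV and 0.219 FPKM in PRSS35. SLC25A18, outside the named rule as its mean is below 1 FPKM and chosen after its values were seen, had 1.07 FPKM in PRSS35 and is listed at 0 in EV. SLC25A38, a mitochondrial glycine carrier, is listed at 0 in both libraries.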
